A study of Mus musculus with 4 samples.

Results

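The RNAs described here are the long non-coding members of the 1700 series, genes that carry RIKEN names because they were first known from cDNA clones of the adult mouse testis. A feature was a member where its name in the deposited table began with 1700 and ended with Rik and its biotype was lincRNA (a long RNA between genes), antisense_RNA (a long RNA over a gene on the other strand) or processed_transcript (a non-coding transcript of neither kind). This rule gave 210 of the 31600 features, of which 110 were lincRNAs, 76 antisense RNAs and 24 processed transcripts. Long RNA had been sequenced after removal of ribosomal RNA from spermatogonial stem cells of the mouse, which sustain sperm production. The control group, with the genotype entry WT, held 2 libraries, and a group with the entry Differentiation in that field held 2 more. The labels do not say by what treatment, or at what time, the differentiation cells were made, nor whether paired libraries stem from different animals or cultures. The p-values below therefore measure the spread between these libraries, which may be technical.

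Long non-coding RNAs are transcribed and often spliced like messenger RNAs but have no recognised protein product. The testis transcribes more of them than most tissues, mainly in meiotic spermatocytes and in the haploid spermatids that follow. Many start close to the start of a protein-coding gene and run away from it, or lie across a gene on the other strand. For most RIKEN-named RNAs no function is known, so the members are described here by level, place and neighbours.

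The deposited values were FPKM, fragments scaled to gene length and library depth, and low values stepped as whole fragments at depths of 17772475 to 20649880 fragments per library. Over all tested features Spearman's rho was 0.97 between the libraries of each group and 0.791 to 0.797 between groups, and no library stood apart from its group. The label of the cells was checked against marker genes. Germ cell markers were high in every library (Ddx4, Dazl, Mael and Tex101 together 446 to 450 FPKM in control and 866 to 869 in differentiation), 8 of 10 markers of undifferentiated spermatogonia fell while Id4 rose, and all 10 spermatocyte markers rose, from a sum of 145 to 149 FPKM in control to 1015 to 1027 FPKM in differentiation (limma, adjusted p under 0.05). Of the round spermatid markers 3 of 6 tested rose and 0 fell, and their sum stayed low, at 6.71 to 8.62 FPKM in control and 9.47 to 9.90 in differentiation. Catsper3 and Tex36, of that list, were below 0.5 FPKM in every library. Of the markers of differentiating spermatogonia 5 of 6 fell and 0 rose, from a sum of 338 to 345 FPKM in control to 183 to 186 FPKM in differentiation. Markers of other testis cells moved in the same comparison. The summed fibroblast and peritubular markers were at 210 to 212 FPKM in control and 67.2 to 72.7 in differentiation (7 of 8 fell, 0 rose), and the leukocyte markers at 50.8 to 53.6 and 14.9 to 15.7 FPKM (4 of 5 fell, 0 rose), with Ptprc below 0.5 FPKM in every library. Sertoli markers summed to 70.6 to 72.4 FPKM in control and 76.3 to 83.8 in differentiation (2 of 5 rose, 2 fell), Leydig markers to 36.8 to 37.9 and 20.8 to 21.1 FPKM (1 of 4 rose, 2 fell) and endothelial markers to 12.4 and 6.69 to 6.91 FPKM (0 of 4 rose, 1 fell). The part of these other cells in the results below was not tested, and in bulk RNA fewer cells of a type and less RNA per cell cannot be told apart.

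Most members that changed were higher in differentiation. Of the 210 members, 127 reached a mean of 0.5 FPKM over the libraries and were tested; 64 of these rose, 8 fell and 55 did not pass (limma on log2(FPKM + 1), Benjamini-Hochberg adjusted p under 0.05 over all 23138 tested features). Over all tested features 29.6% rose and 27.0% fell, so that the share of members that rose, 50.4%, lay above the background and the share that fell, 6.30%, lay below it. The share called in either direction, 56.7%, was close to the background of 56.6%. A tested member with a control mean under 0.5 FPKM reached the filter through differentiation and could only be called higher. One with a differentiation mean under 0.5 FPKM could only be called lower. The shares here and below include such members, and the background such features, so the filter fixed the direction of part of the calls. A rise of at least 1 on the log2 scale was seen in 39 members, 30.7% of those tested against 9.70% of all tested features, and a fall of that size in 0 members, against 4.40% of all tested features. The count of 8 falls became 5 without control replicate 2. The median log2 fold change of the tested members was 0.44, with quartiles of -0.01 and 1.21, beside a median of 0.01 over all tested features. With the 3 tested members listed at 0 in both control libraries set to the bound that 3 fragments over the control group allow, it was 0.44 as well, which was fixed in advance because these members lie above the median either way.

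The libraries of the groups did not overlap for 78 tested members that lay higher in differentiation and 15 that lay lower, against 40.9% and 39.1% of all tested features. Together these were 73.2% of the tested members, against 79.9% of all tested features. Summed over all 210 members, the level was 403 and 412 FPKM in control (408 ± 5.82, SD, n = 2) and 1027 and 1030 FPKM in differentiation (1029 ± 2.63, SD, n = 2). The ratio of the means was 2.52, while the sum over every feature of the table had a ratio of 0.933. The 5 members with the largest increases on the log2(FPKM + 1) scale made up 0.381% and 0.498% of the members' sum in control. In differentiation they made up 24.74% and 24.97% of it, and without them the ratio was 1.90. At 1 FPKM or more there were 69 members in each control library and 100 and 105 in differentiation. Across the tested members Spearman's rho was 0.956 within control, 0.963 within differentiation and 0.483 to 0.50 between libraries of different groups, a description over genes, which are not independent replicates. The order of the members by level was thus nearly the same in libraries of a group and much less so between groups.

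**Figure D1:**
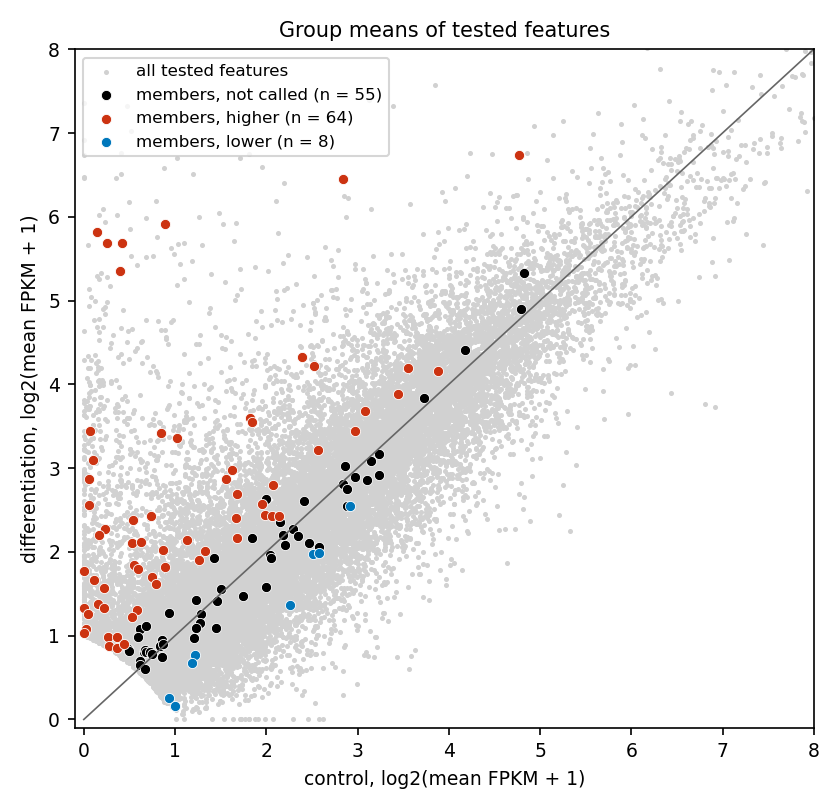
Mean level of each tested feature in control (horizontal axis) and differentiation (vertical axis), both as log2(mean FPKM + 1); grey points are all tested features, coloured points the 127 tested members by call, and the line marks equal levels; features above 8 on either axis are not shown. The 64 members called higher lie above the line, among them a cluster near 0 in control and above 5 in differentiation, and the 8 called lower lie close to it.

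Increases were most frequent among the lincRNA members. Among the lincRNAs 35 of 54 tested members rose and 3 fell, with a median log2 fold change of 0.72. Among the antisense RNAs 18 of 52 rose and 4 fell (median 0.12), and among the processed transcripts 11 of 21 rose and 1 fell (median 0.34). For comparison, the other lincRNAs of the table rose in 34.9% and fell in 15.9% of 1012 tested features, the other antisense RNAs in 27.0% and 20.2% of 1627, and the other processed transcripts in 29.9% and 27.7% of 361. In the protein-coding genes with 1700-series names 46 of 73 tested rose and 1 fell (median 0.89), and in the non-coding RNAs with RIKEN names starting with 49, also mostly from testis clones, 94 of 185 rose and 22 fell (median 0.37). These shares and medians are descriptions; the differences between classes were not tested.

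**Figure D2:**
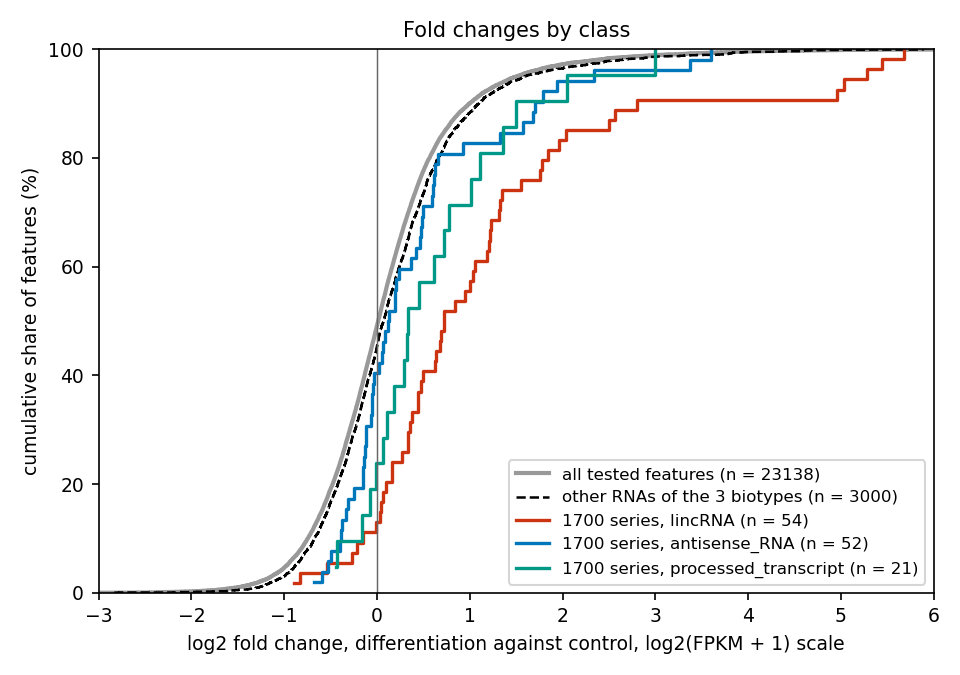
Cumulative share of tested features (vertical axis, %) by log2 fold change of differentiation against control (horizontal axis, log2(FPKM + 1) scale) for all tested features, the other RNAs of the 3 biotypes and the members by biotype. The curve of the 54 lincRNA members lies farthest to the right, with a median of 0.72, and the antisense members lie nearest to the background, with a median of 0.12.

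Increases outnumbered decreases at every level. Of the members with a mean of 0.5 to 1 FPKM 13 of 34 rose and 3 fell, at 1 to 5 FPKM 32 of 60 rose and 4 fell, and at 5 FPKM or more 19 of 33 rose and 1 fell. In the same bands 21.1%, 29.6% and 41.8% of the other RNAs of these biotypes rose and 12.6%, 20.2% and 27.1% fell. Increases thus outnumbered decreases at every level among these other RNAs too. Members that rose, fell or did not pass each had a median of 3 exons, and their median exonic length was 1009, 924 and 808 bases. The 208 members found in the annotation were spread over 20 chromosomes, from 26 on chromosome 6 and 18 on chromosome 4 to 2 on the X chromosome. Both X-linked members, 1700111N16Rik and 1700010D01Rik, were below the level needed for testing. RefSeq listed 171 of the 210 symbols, 169 of them as long non-coding RNA. It listed 1700065D16Rik as protein-coding and 1700018B24Rik as a transcribed pseudogene, so the biotype of these 2 members differs between annotations.

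The 5 largest increases were in lincRNAs that were nearly absent from control and abundant in differentiation. 1700008K24Rik (ENSMUSG00000101012), a gene of 2 exons at chr17:49112263-49113535 on the minus strand of GRCm38, was at 0.108 and 0.102 FPKM in control and at 55.0 and 55.9 FPKM in differentiation. The control values are 2 fragments each and the differentiation values 928 and 1081 fragments, a depth-scaled ratio of 528 with a 95% interval of 206 to 1941 that covers counting error. The group means were 0.105 ± 0.0044 and 55.4 ± 0.647 FPKM (SD, n = 2), and the log2 fold change was 5.67 (SE 0.05; limma adjusted p = 6.21e-05). The groups did not overlap. 1700009C05Rik (ENSMUSG00000101404; 6 exons, chr6:81900464-81910800, minus strand) was at 0.261 and 0.123 FPKM in control and 50.2 and 51.0 FPKM in differentiation, 5.44 higher on the log2 scale (SE 0.08; limma adjusted p = 7.59e-05). It rested on 6 control fragments in all, and the ratio of fragments was 267 (95% interval 122 to 728). 1700042G15Rik (ENSMUSG00000087044; 4 exons, chr4:57360868-57364292, minus strand) was at 0.232 and 0.438 FPKM in control and at 50.3 and 50.9 FPKM in differentiation, with a ratio of fragments of 150 (95% interval 78.6 to 328).

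Of the other 2 of these lincRNAs, 1700029M20Rik had more signal in control. 1700029M20Rik (ENSMUSG00000086788; 3 exons, chr4:135626655-135630198, plus strand) was at 0.748 and 0.945 FPKM in control and 59.9 and 58.8 FPKM in differentiation. With 103 fragments in control its ratio, 69.8, was the most precise of the 5 (95% interval 57.5 to 85.7), and the log2 difference was 5.03 (SE 0.07; limma adjusted p = 7.36e-05). 1700020N18Rik (ENSMUSG00000100253; 3 exons, chr1:91404879-91406029, minus strand) was at 0.188 and 0.443 FPKM in control and 38.7 and 40.8 FPKM in differentiation, 4.96 higher on the log2 scale (SE 0.11; limma adjusted p = 1.12e-04). It rested on 7 control fragments in all, and the ratio of fragments was 125 (95% interval 60.3 to 311). None of the 5 overlapped a protein-coding gene of GENCODE M21 or had one starting within 5 kb in the divergent direction. All 5 differentiation values lay between 38.7 and 59.9 FPKM, and the libraries of that group differed little.

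The next 7 increases started from low control levels, except for 1700097N02Rik. 1700097N02Rik (ENSMUSG00000099474; chr17:30622441-30626905, minus strand), an antisense RNA, was at 6.20 and 6.13 FPKM in control and at 92.0 and 80.5 FPKM in differentiation, 3.60 higher on the log2 scale (SE 0.07; limma adjusted p = 9.76e-05). 1700026D11Rik, an antisense RNA at chr2:132490634-132524057, was at 0.0175 and 0.0827 FPKM in control and 9.72 and 10.04 FPKM in differentiation. 1700051A21Rik, a processed transcript at chr11:72266421-72268575, was at 0.0856 and 0.0538 FPKM and then at 7.19 and 7.94 FPKM. In each of these the control level rested on 6 or fewer fragments or, for 1700097N02Rik, on 209.

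The lincRNAs 1700026J12Rik (chr16:49210641-49255772, 8 exons) and 1700065L07Rik (chr6:73436986-73471021, 5 exons) had 2 and 1 control fragments in all. 1700026J12Rik was at 5.75 and 6.89 FPKM in differentiation, with a ratio of fragments of 147 (95% interval 40.4 to 1222), and 1700065L07Rik at 4.58 and 5.20 FPKM, with a ratio of 121 (95% interval 21.3 to 4819). The width of these intervals shows how little the control counts fix the ratios. 1700040D17Rik, a lincRNA at chr3:94409395-94412919, was at 0.927 and 0.679 FPKM in control and 9.47 and 9.89 FPKM in differentiation. 1700095J03Rik, an antisense RNA at chr7:109438618-109444893, was at 0.966 and 1.098 FPKM and then at 9.65 and 8.91 FPKM. The log2 fold changes of these last 6 ran from 2.34 to 3.37 and the limma adjusted p-values from 1.34e-04 to 3.18e-04, and all kept their call when any 1 library was left out.

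**Figure D3:**
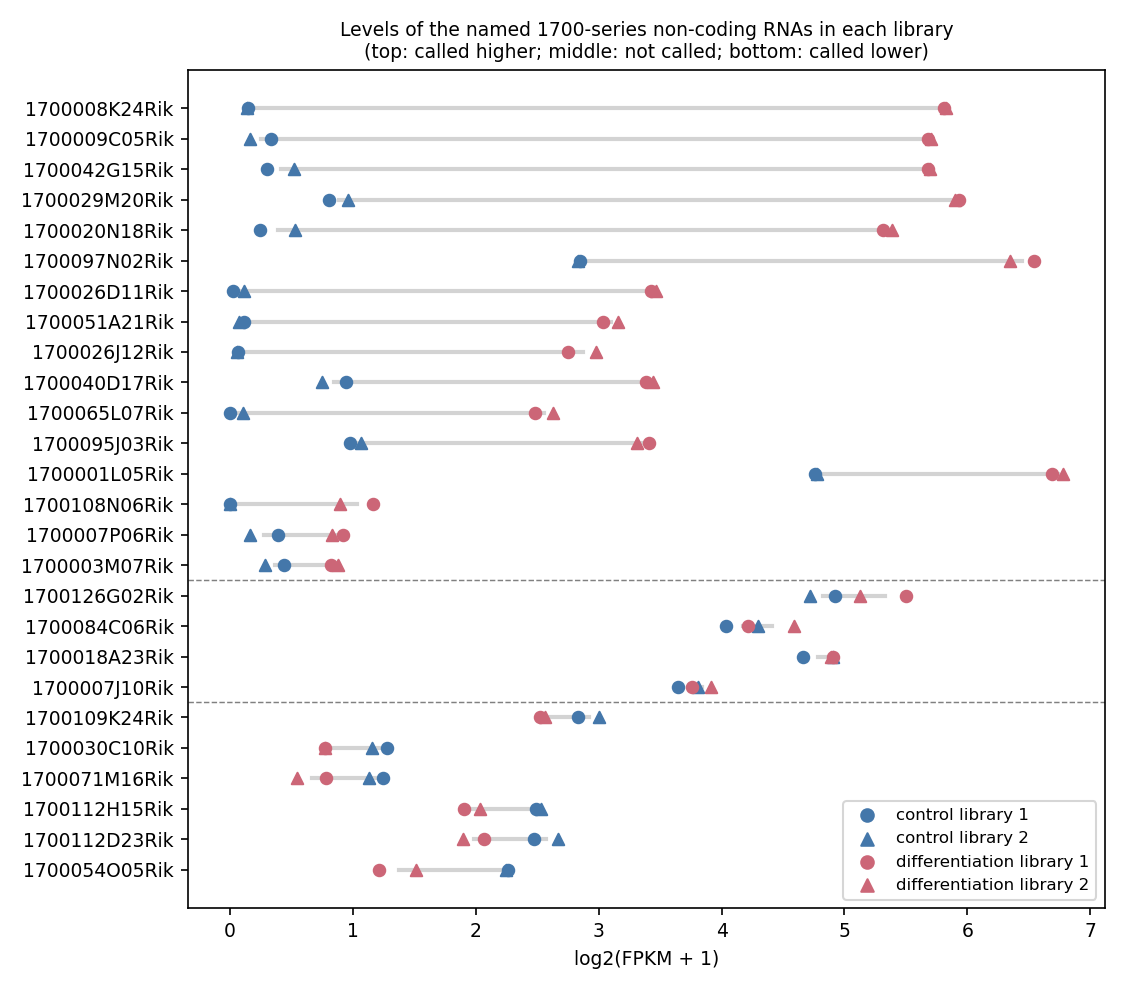
Level of the named tested members in each of the 4 libraries, as log2(FPKM + 1) on the horizontal axis; circles are library 1 and triangles library 2 of each group, blue is control, red is differentiation, and grey lines join the group means. The largest increases, at the top, run from below 1 to above 5, the 4 members in the middle were not called, and the group means of the decreases at the bottom are each less than 1 apart.

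The promoters of 6 of these members, and of 2 members that fell, are shown so that the letters at the starts of members with opposite calls can be compared. Each sequence is from RefSeq on GRCm38.p6, 250 bases before to 50 bases after the start, read 5′ to 3′ on the strand of the gene. Capitals mark matches to the MYB element, spelled CNGTTG or CNGTTA, on either strand.
1700008K24Rik, chr17:49113484-49113783, minus strand: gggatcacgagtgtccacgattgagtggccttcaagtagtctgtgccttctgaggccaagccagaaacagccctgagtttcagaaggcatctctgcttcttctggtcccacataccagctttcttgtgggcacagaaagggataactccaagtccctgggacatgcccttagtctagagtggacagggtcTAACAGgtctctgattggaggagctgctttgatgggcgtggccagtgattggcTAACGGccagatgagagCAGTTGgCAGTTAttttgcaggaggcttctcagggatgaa
1700042G15Rik, chr4:57364243-57364542, minus strand: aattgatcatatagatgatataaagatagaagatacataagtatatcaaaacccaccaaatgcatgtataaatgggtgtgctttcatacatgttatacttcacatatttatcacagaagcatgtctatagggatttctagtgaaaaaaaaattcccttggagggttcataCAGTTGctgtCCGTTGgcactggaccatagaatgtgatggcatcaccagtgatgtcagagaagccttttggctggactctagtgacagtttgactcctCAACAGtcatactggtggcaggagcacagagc
1700029M20Rik, chr4:135626405-135626704, plus strand: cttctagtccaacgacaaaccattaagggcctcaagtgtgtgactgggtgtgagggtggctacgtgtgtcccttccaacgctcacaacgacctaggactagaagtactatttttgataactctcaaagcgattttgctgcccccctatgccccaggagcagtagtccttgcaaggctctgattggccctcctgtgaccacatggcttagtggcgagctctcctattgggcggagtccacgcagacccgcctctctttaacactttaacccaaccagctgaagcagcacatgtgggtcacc
1700020N18Rik, chr1:91405980-91406279, minus strand: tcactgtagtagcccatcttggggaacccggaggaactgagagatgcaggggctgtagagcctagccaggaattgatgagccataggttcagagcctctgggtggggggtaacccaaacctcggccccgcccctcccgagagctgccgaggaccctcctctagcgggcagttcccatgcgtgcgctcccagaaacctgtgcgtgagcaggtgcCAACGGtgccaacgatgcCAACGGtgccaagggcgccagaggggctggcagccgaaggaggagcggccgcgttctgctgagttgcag
1700097N02Rik, chr17:30626856-30627155, minus strand: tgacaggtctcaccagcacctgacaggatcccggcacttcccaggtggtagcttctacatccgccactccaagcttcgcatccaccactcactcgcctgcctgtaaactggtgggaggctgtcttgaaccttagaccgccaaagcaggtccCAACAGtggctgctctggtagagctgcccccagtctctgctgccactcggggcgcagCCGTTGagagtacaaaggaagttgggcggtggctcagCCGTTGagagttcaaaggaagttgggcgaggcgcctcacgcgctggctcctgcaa
1700026D11Rik, chr2:132490478-132490777, plus strand: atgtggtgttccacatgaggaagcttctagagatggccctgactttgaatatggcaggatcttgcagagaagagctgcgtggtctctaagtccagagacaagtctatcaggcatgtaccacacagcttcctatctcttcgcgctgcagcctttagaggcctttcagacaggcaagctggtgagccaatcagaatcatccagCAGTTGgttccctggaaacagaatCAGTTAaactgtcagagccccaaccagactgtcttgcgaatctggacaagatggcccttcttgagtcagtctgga
1700112D23Rik, chr3:28781073-28781372, minus strand: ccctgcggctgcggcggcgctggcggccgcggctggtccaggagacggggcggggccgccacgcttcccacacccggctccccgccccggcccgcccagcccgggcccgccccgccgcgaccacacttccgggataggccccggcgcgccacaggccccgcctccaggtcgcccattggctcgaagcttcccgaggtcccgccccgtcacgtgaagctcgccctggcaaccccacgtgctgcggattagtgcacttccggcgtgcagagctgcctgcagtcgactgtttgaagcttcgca
1700112H15Rik, chr1:184557642-184557941, minus strand: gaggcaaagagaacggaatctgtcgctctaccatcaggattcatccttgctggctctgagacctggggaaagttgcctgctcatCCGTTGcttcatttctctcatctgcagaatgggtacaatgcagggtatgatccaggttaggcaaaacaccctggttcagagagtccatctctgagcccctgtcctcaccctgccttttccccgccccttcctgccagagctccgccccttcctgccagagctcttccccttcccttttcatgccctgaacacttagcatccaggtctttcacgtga

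The promoter of 1700008K24Rik held 4 matches, those of 1700042G15Rik and 1700097N02Rik 3 each, those of 1700020N18Rik and 1700026D11Rik 2 each and that of 1700029M20Rik 0. Of the 2 members that fell, 1700112H15Rik had 1 match and 1700112D23Rik 0. The 1700112D23Rik promoter had a GC content of 75% and 38 CG dinucleotides, whereas that of 1700042G15Rik had a GC content of 39.7% and 1 CG dinucleotide. Promoters were found for 136 of the 210 members, and 63.2% of them held a MYB element, against 49.6% of 27025 promoters of the same length. The share was 64.4% for the 45 promoters of members that rose, 55.6% for the 27 of members that did not pass and 68.4% for the 57 of members too low to test. Of the 7 promoters of members that fell 3 held a match. The STRA8 element, CNCCTCAG, was in 7 of the 45 promoters of members that rose and in 7.98% of all promoters, and the cAMP response element, TGACGTCA, in 1 of the 45 and 1.86%. All elements were searched on both strands, and no matches overlap in the promoters printed here. A match describes the letters and says nothing of whether a factor bound there.

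The highest level of any member in differentiation was that of 1700001L05Rik (ENSMUSG00000075511), a lincRNA of 4 exons and 6112 exonic bases at chr15:83353847-83367282 on the minus strand. It was already at 26.1 and 26.4 FPKM in control and rose to 102 and 109 FPKM in differentiation, 1.97 higher on the log2 scale (SE 0.04; limma adjusted p = 9.76e-05). Its counts, 6439 fragments over the control libraries and 24649 over the differentiation libraries, made it the best measured of the named members, with a ratio of 4.03 (95% interval 3.92 to 4.14). It took 6.47% and 6.42% of the members' summed FPKM in control and 9.96% and 10.6% in differentiation.

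Other abundant members did not pass the test. 1700126G02Rik, an antisense RNA at chr6:143201397-143221448, was at 29.3 and 25.3 FPKM in control and 44.4 and 34.0 FPKM in differentiation. Both differentiation values lay above both control values, and the log2 fold change of 0.50 (SE 0.15) had a limma adjusted p of 0.0506. Without differentiation replicate 2 it passed (limma adjusted p = 0.0383), as it did with limma-voom on the recovered fragments (adjusted p = 3.90e-04). 1700018A23Rik, an antisense RNA, was at 24.3 and 29.0 FPKM in control and 29.0 and 28.6 FPKM in differentiation, and the groups overlapped (log2 fold change 0.12; limma adjusted p = 0.330, and 0.0244 without control replicate 2). 1700084C06Rik, also antisense, was at 15.4 and 18.7 FPKM and then at 17.6 and 23.0 FPKM (limma adjusted p = 0.279). The processed transcript 1700007J10Rik was at 11.5 and 13.0 FPKM in control and 12.6 and 14.1 FPKM in differentiation (limma adjusted p = 0.321). The groups overlapped for the last 3, whose log2 fold changes lay between 0.11 and 0.23.

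On the log2(FPKM + 1) scale the 8 decreases were small beside the increases. 1700054O05Rik (ENSMUSG00000111753), a lincRNA of 2 exons at chr10:35478827-35485396 on the minus strand, was at 3.80 and 3.75 FPKM in control and at 1.32 and 1.86 FPKM in differentiation. The log2 fold change was -0.89 (SE 0.13), with limma adjusted p = 6.85e-03. These are 84 fragments against 34, a ratio of 0.426 (95% interval 0.277 to 0.641). The lincRNA 1700112H15Rik (chr1:184527841-184557691) was at 4.62 and 4.79 FPKM and then at 2.75 and 3.09 FPKM, with a log2 fold change of -0.54 and limma adjusted p = 7.14e-03. For both, every differentiation value lay below both control values, and both kept the call when any 1 library was left out.

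Of the remaining decreases, those of 1700112D23Rik, 1700071M16Rik, 1700030C10Rik and 1700109K24Rik depended on single libraries. 1700112D23Rik, an antisense RNA at chr3:28702667-28781108, was at 4.55 and 5.36 FPKM in control and 3.19 and 2.72 FPKM in differentiation (limma adjusted p = 0.0140), and lost its call without control replicate 2 or differentiation replicate 2 (adjusted p = 0.0622 and 0.0777). 1700071M16Rik, an antisense RNA at chr17:43588340-43592442, was at 1.37 and 1.19 FPKM and then at 0.722 and 0.460 FPKM (limma adjusted p = 0.0288), and lost its call without control replicate 1 or 2 or differentiation replicate 2 (adjusted p = 0.115, 0.0756 and 0.0926). 1700030C10Rik, a processed transcript, was at 1.42 and 1.23 FPKM and then at 0.713 and 0.708 FPKM (limma adjusted p = 0.0230), and without any 1 of the 4 libraries its adjusted p lay between 0.0596 and 0.102. 1700109K24Rik, an antisense RNA, was at 6.13 and 7.01 FPKM and then at 4.75 and 4.90 FPKM (limma adjusted p = 0.0192). Its adjusted p was 0.0710 without control replicate 2 and 0.102 and 0.0875 without differentiation replicate 1 or 2. The groups did not overlap for any of these 4. The lincRNA 1700054K19Rik and the antisense RNA 1700095A21Rik are named because they complete the 8. They were at 1.14 and 0.857 FPKM and at 1.01 and 0.815 FPKM in control and at 0.109 to 0.211 FPKM in differentiation. Both kept the call when any 1 library was left out. The log2 fold change of 1700095A21Rik was -0.67 (limma adjusted p = 7.69e-03).

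The level needed for testing fell among members with few fragments. Just above it, 1700007P06Rik was at 0.312 and 0.118 FPKM in control and 0.889 and 0.776 FPKM in differentiation, and 1700003M07Rik at 0.353 and 0.222 and then 0.773 and 0.844 FPKM; both were called higher, and both lost the call without control replicate 2 (limma adjusted p = 0.0681 and 0.0848) or without differentiation replicate 1 (0.0799 and 0.0582) or 2 (0.0633 and 0.0698). 1700108N06Rik had 0 fragments in both control libraries and 15 and 12 in differentiation, which is at least 9.47-fold higher against a floor of 3 fragments over the control group. Just below it, 1700048M11Rik was at 1.06 and 0.399 FPKM in control and 0.232 and 0.304 FPKM in differentiation, 1700100L14Rik at 0.383 and 0.300 and then 0.489 and 0.792 FPKM, and 1700082M22Rik at 0.233 and 0.219 and then 0.687 and 0.80 FPKM. Members on either side of this level were thus similar in abundance.

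The 83 members below that level had means from 0.0670 to 0.499 FPKM, with a median of 6 fragments over the control libraries and 10 over the differentiation libraries. When all features above 0 were tested, 22 of the 83 passed as higher and 5 as lower, where 11.2% and 8.26% of all features this low passed. The authors' deposited table called 12 of the 83 higher and 0 lower, against 7.65% and 5.79% of all features this low. Among the 210 members, 9 were listed at 0 in both control libraries and 0 in both differentiation libraries. For 3 of the 9, 1700108N06Rik, 1700046C09Rik and 1700003L19Rik, the differentiation level alone brought the mean to the level needed for testing. They could be called in no other direction than higher. The same holds for every tested member with a control mean under 0.5 FPKM. Among the 5 largest increases these are 1700008K24Rik, 1700009C05Rik, 1700042G15Rik and 1700020N18Rik (control means 0.105, 0.192, 0.335 and 0.315 FPKM). Among the next 7 they are 1700026D11Rik, 1700051A21Rik, 1700026J12Rik and 1700065L07Rik (control means 0.0501, 0.0697, 0.0432 and 0.0394 FPKM). Conversely, a tested member with a differentiation mean under 0.5 FPKM could only be called lower. The number of members detected at any level was 188 and 194 in control and 206 and 209 in differentiation.

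Where a member changed, its tested protein-coding neighbour mostly changed in the same direction. In GENCODE M21, 90 of the 208 annotated members overlapped a protein-coding gene on the opposite strand (96 pairs) and 29 had a divergent neighbour, a protein-coding gene on the opposite strand that starts within 5 kb and runs away from the member (29 pairs). There were 23 opposite-strand pairs, from 21 members, with a member that rose and a tested partner. The partner rose in 19, fell in 2 and did not pass in 2, where 32.5% of all tested protein-coding features rose and 34.0% fell. In 14 of the 23 pairs the starts of member and partner lay within 5 kb of each other. The partner fell in all 4 pairs whose member fell. Where the member did not pass, 9 of 37 partners rose and 13 fell. In divergent pairs the partner rose in 6 of 8 pairs with a member that rose and fell in 0, and fell in the 1 pair with a member that fell. The log2 fold changes of member and partner had a Pearson's r of 0.72 (Spearman's rho 0.62) over 64 opposite-strand pairs from 62 members. Over 17 divergent pairs from 17 members r was 0.56 (rho 0.56). These are descriptions over pairs that share the libraries and, in part, the same locus.

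Whether reads were assigned by strand is not stated in the labels or files used. Without strand, fragments of a member and of a gene across it cannot be told apart, so the values of antisense members are uncertain. Exonic bases were shared in 18 of the 23 opposite-strand pairs with a member that rose, and in 0 of the 29 divergent pairs. Over the 19 opposite-strand pairs of tested genes with no shared exonic base, r was 0.59 (rho 0.60). Fragments from introns of unspliced RNA can still fall into such members, and their part was not tested.

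Among the members with large increases, 1700097N02Rik lies across Dnah8, a dynein heavy chain of the sperm tail, which was at 13.6 and 13.1 FPKM in control and 186 and 192 FPKM in differentiation (log2 fold change 3.72; limma adjusted p = 6.21e-05). The pair shares 207 of the 845 exonic bases of 1700097N02Rik. On its own strand the same member starts 34 bases from Glo1, a glyoxalase that clears methylglyoxal, shares 90 exonic bases with it, and Glo1 went the other way, from 45.2 and 47.9 FPKM to 28.9 and 28.0 FPKM (log2 fold change -0.69; limma adjusted p = 6.49e-04). 1700095J03Rik overlaps Stk33, a serine/threonine kinase needed for sperm tail formation, which went from 1.16 and 1.53 FPKM to 20.0 and 22.7 FPKM. 1700051A21Rik overlaps Slc13a5, a citrate transporter of the cell membrane, which went from 0.218 and 0.176 FPKM to 5.70 and 6.16 FPKM. Both partners rose and share 365 and 473 exonic bases with their members. 1700040D17Rik starts 354 bases from Tdrkh, a tudor protein that acts in the trimming of piRNAs, and Tdrkh rose from 14.9 and 13.9 FPKM to 23.1 and 24.7 FPKM, less than its neighbour. 1700065L07Rik overlaps 4931417E11Rik on the same strand with no shared exonic base, and that gene rose from 0.0939 and 0 FPKM to 6.22 and 8.39 FPKM.

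Neighbours of other named members covered all outcomes. 1700112D23Rik, which fell, starts 168 bases from Eif5a2, a translation factor that went from 17.1 and 17.3 FPKM to 9.47 and 9.75 FPKM, and lies across Slc2a2, a glucose transporter that went from 2.52 and 2.32 FPKM to 1.35 and 1.41 FPKM. Both partners fell (limma adjusted p = 3.89e-04 and 0.0112) and share no exonic base with it. Pla2g7, a phospholipase that cleaves platelet-activating factor, lies across 1700071M16Rik and fell from 4.74 and 5.70 FPKM to 2.36 and 1.69 FPKM. Rbfox2, a splicing factor, lies across 1700109K24Rik and fell slightly, from 20.5 and 20.4 FPKM to 18.4 and 18.3 FPKM (log2 fold change -0.15; limma adjusted p = 0.0164). Of the partners of abundant members that did not pass, the ethanolamine kinase gene Etnk1 (with 1700126G02Rik) and the complex I gene Ndufa9 (with 1700018A23Rik) rose by 0.44 and 0.20 on the log2 scale, the kinase gene Tyk2 (with 1700084C06Rik) fell by 0.32, and Mprip (with 1700007J10Rik) did not pass (log2 fold change 0.07; limma adjusted p = 0.176). Spata17, a testis gene across 1700007P06Rik with no shared exonic base, rose from 0.662 and 0.641 FPKM to 2.78 and 3.44 FPKM.

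A few further pairs, chosen after their values were seen, show members that moved with their neighbours and members that moved against them. 1700006J14Rik rose from 4.29 and 4.18 FPKM to 19.3 and 18.8 FPKM, while Hmga2, a chromatin protein of stem and embryonic cells that lies across it, fell from 11.1 and 11.1 FPKM to 4.14 and 4.10 FPKM. 1700001G11Rik rose from 2.00 and 2.42 FPKM to 5.52 and 5.37 FPKM, while Trim35, a tripartite motif protein that starts 98 bases from it, fell from 27.6 and 27.1 FPKM to 22.8 and 21.3 FPKM. These are the 2 opposite-strand pairs with opposite calls. 1700065D16Rik, the member that RefSeq lists as protein-coding, rose from 4.90 and 4.58 FPKM to 17.4 and 17.9 FPKM, and Atr, a checkpoint kinase of DNA damage that shares 726 exonic bases with it, rose from 13.9 and 13.6 FPKM to 55.3 and 55.2 FPKM. 1700046C09Rik and its divergent neighbour Pom121l12, which start 51 bases apart, were both listed at 0 in both control libraries. In differentiation they were at 1.87 and 1.18 FPKM and at 7.31 and 8.18 FPKM.

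**Figure D4:**
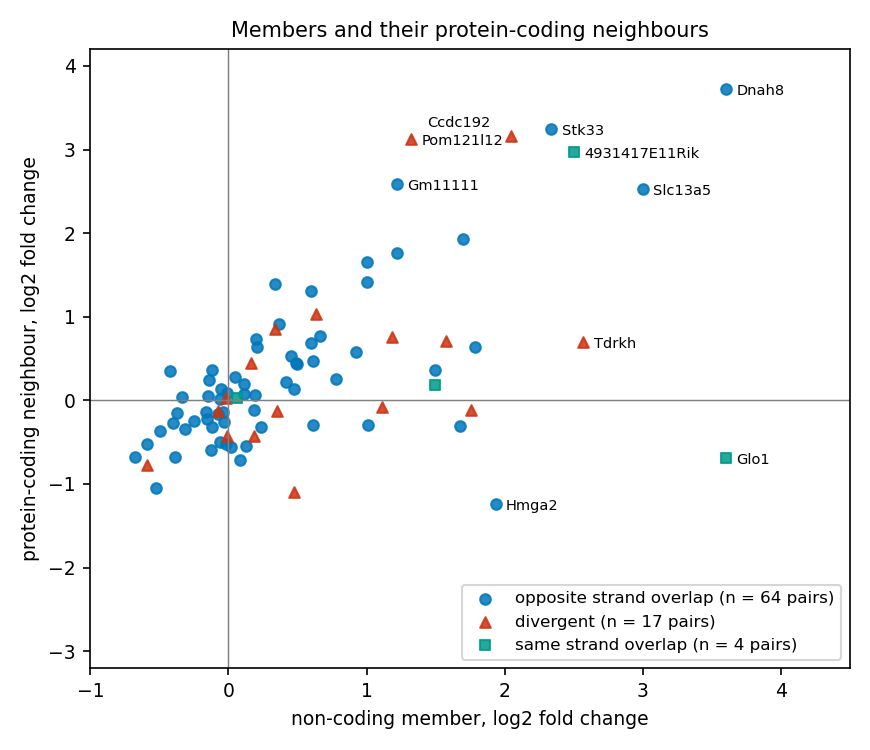
Log2 fold change of each tested member (horizontal axis) and of its tested protein-coding neighbour (vertical axis), both on the log2(FPKM + 1) scale, for 64 opposite-strand, 17 divergent and 4 same-strand pairs; names are those of neighbours. Most pairs in which the member was higher lie above 0, and Glo1 and Hmga2 lie farthest below 0 among the neighbours of strongly raised members.

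By the authors' deposited table, 68 of the 210 members had an adjusted p under 0.05 and a higher level in differentiation and 3 a lower one, beside 22.0% and 20.3% of all features in that table. Of the members called by the test used here, 55 of the 64 that rose and 3 of the 8 that fell were also called there in the same direction. Of the decreases named by rule, 1700054O05Rik and 1700071M16Rik were called there. 1700112H15Rik, 1700112D23Rik, 1700030C10Rik and 1700109K24Rik were not. Both used the same libraries, so the overlap adds no independent support.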

How the data were processed

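The authors deposited a table of FPKM per feature and library, with their own log2 fold change, p-value and adjusted p, from a test that the labels and headers do not name. Per the submitters' processing notes, HISAT2 and GRCm38 were used; which annotation and counter were used, and whether counting was by strand, is not stated there. The members and lists were chosen with earlier results of these data known.

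FPKM times the exonic length in GENCODE M21 (31536 of 31600 identifiers matched) gave whole fragments within 0.05 for 96.2% of the features with under 300 fragments in each library. The 95% intervals are exact conditional binomial (Clopper-Pearson) intervals on summed fragments; they and the floor of 3 fragments cover counting error only. The test was limma 3.58.1 (R 4.3.3) with an intensity trend on log2(FPKM + 1), two-sided, with group as the only term, on features whose mean reached 0.5 FPKM. It had 2 residual degrees of freedom and a prior of 2.14. The log2(FPKM + 1) scale understates the change of low genes. The fit was also run on simulated fragments. Their spread was set and not taken from these libraries, so that run gives no error rate for these data.

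Members were named by rule: the 12 largest increases and up to 8 decreases that passed, did not overlap and reached 1 FPKM in a group (6 decreases did), the 4 highest, the 4 highest that did not pass, and 3 on each side of the filter, with their protein-coding neighbours. Other names are marked in the text. Alternatives were the pseudocount, the filter, scaling, the prior, a replicate block, each library left out, a minimum fold and limma-voom on recovered fragments. Python 3.11.15, pandas 2.3.3, scipy 1.17.1 and matplotlib 3.10.9 were used.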

Additional observations from a re-analysis of the deposited data

How the results depend on the processing

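Across the alternatives the members called higher stayed within 1.5 times of 64, with 1 exception. A minimum of 1 on the log2(FPKM + 1) scale left 39 higher and 0 lower. The members called lower were 5 at a mean of at least 1 FPKM, which tests fewer features, and 13 with no filter. Leaving out 1 library gave 48 to 54 higher and 5 to 7 lower members, and 44 of the 64 and 4 of the 8 calls held in all 4 such fits. The median log2 fold change of tested members, 0.44, was 0.66 with a pseudocount of 0.1 FPKM and 0.66 with limma-voom, neither of which shrinks low values as a pseudocount of 1 does, and 0.23 with no filter, which adds the lowest members. Without 1 library it ran from 0.418 to 0.450. Non-overlapping members numbered 142 of 210 with no filter. Median centring and quantile normalization kept 60 of the 64 rises and all 8 falls.

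The replicate numbers were not taken as pairs: the deviations of libraries with the same number had a correlation of -0.00041. With the replicate block 65 members were higher and 8 lower, and among the named members 1700126G02Rik and 1700084C06Rik passed (limma adjusted p = 7.86e-03 and 0.0284). Partners that rose with an opposite-strand member numbered 14 to 20, and with a divergent member 4 to 9, over all fits, counts that were added after seeing the data. Members under about 10 fragments per library are limited by counting error.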
